A study of Mus musculus with 6 samples.

Results

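Ribosome biogenesis factors are the proteins that transcribe, modify, cut and fold ribosomal RNA on its way to finished ribosomal subunits. The 40 genes described here were listed by symbol, and each was found in the count table through its Ensembl identifier, so that 40 of 57132 listed genes were members. The members were chosen by name and not by a measured value, although earlier results of these data were known when the list was made. The samples were mouse bone marrow-derived dendritic cell cultures, grown from marrow of female C57BL/6 mice 6 to 8 weeks old with the cytokine GM-CSF at 15 ng/mL in medium with dialyzed serum. The 0Q group had no added queuine and the 100Q group had queuine at 100 nM, with 3 libraries in each, and total RNA was taken on day 5 after feeding on days 2 and 4. Queuine is the base that cells place in the anticodon of 4 tRNAs (those of Asn, Asp, His and Tyr), where it forms the modified nucleoside queuosine. Wells were plated in triplicate, per the labels, and no separate animals are named. The p-values therefore cover the spread from culture to culture alone, which may be technical.

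Ribosome production begins in the nucleolus, where RNA polymerase I transcribes the ribosomal DNA into a long precursor. Small nucleolar ribonucleoproteins (snoRNPs) of the box C/D and box H/ACA classes guide ribose methylation and pseudouridine formation in that precursor. Assembly factors then build the small (40S) and the large (60S) subunit along separate routes. These factors are known to be highly transcribed in growing and dividing cells, and Myc is a known activator of many of them.

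Library totals ran from 3675931 to 6755398 estimated counts in 0Q and from 4484793 to 19386617 in 100Q. Members held 13670 to 74129 counts per library, which was 0.348% to 0.405% of the counts of the tested genes. The cultures held transcripts of several myeloid types: the summed level of 9 granulocyte markers was 16919 to 19873 CPM (counts scaled to a common library size with TMM factors) in 0Q and 14110 to 17204 CPM in 100Q, and 9 of these 9 genes had estimates below 0 in 100Q (median log2 fold change -0.24). Of all tested genes at 100 CPM or more, 67.8% had estimates below 0. The 9 dendritic cell markers summed to 1018 to 1180 CPM in 0Q, against 1051 to 1203 CPM in 100Q. Of these 7 had estimates above 0 and 2 below (median log2 fold change 0.08). Flt3 and Zbtb46 were low, at mean values of 1.12 and 1.17 CPM in 0Q, and H2-Aa was highest, at 577 CPM. Itgax had means of 98.6 CPM in 0Q and 140 CPM in 100Q (edgeR unadjusted p = 0.0174, adjusted p = 0.999). For Itgax and Irf4 100Q lay wholly above 0Q (22.2% of the dendritic cell markers, against 4.41% of all tested genes). Among the granulocyte markers Camp, Ly6g and Ngp lay wholly below in 100Q (33.3%, against 3.84% of all tested genes). Their edgeR unadjusted p were 0.00620, 0.0236 and 0.0351, each with an adjusted p of 0.999. The 7 monocyte and macrophage markers summed to 18305 to 20308 CPM in 0Q, against 18292 to 22031 CPM in 100Q, most of it Lyz2. The 5 T and NK cell markers summed to 34.2 to 44.9 CPM in 0Q, against 24.9 to 44.0 CPM in 100Q, most of it Nkg7. The 5 erythroid markers summed to 39.8 to 43.3 CPM in 0Q, against 37.1 to 54.8 CPM in 100Q, most of it Hbb-bs. In these lists Cd3e and Klf1 had 0 counts in all 6 libraries. In such bulk cultures fewer cells of a type and less RNA per cell cannot be told apart, and the part of cell composition in the members' values was not tested.

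All 40 members passed the filter on low counts, and 39 had counts in all 6 libraries. The exception was Urb1, a large-subunit factor, which had 0 counts in 0Q replicate 3 and passed the filter only through its counts in 100Q. Levels of different genes were compared as CPM per kilobase of annotated exon. On this scale the members ran from 0.346 for Urb1 to 275 for Nhp2, a span from percentile 5.60 to percentile 97.8 of all tested genes. Members of the same complex were often far apart. Among the box H/ACA proteins, which are the pseudouridine synthase Dkc1 and its partners Nhp2, Nop10 and Gar1, the levels were 275 CPM per kilobase for Nhp2, 230 for Nop10, 6.19 for Dkc1 and 2.83 for Gar1. With the length of the canonical transcript in place of all annotated exons, Nhp2 stood at 1003, Nop10 at 230.2, Dkc1 at 7.87 and Gar1 at 4.40, in the same order.

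The box C/D group holds Nop56 and Nop58, the scaffold pair, Fbl, the methyltransferase, and Rrp9, a protein of the snoRNP that prepares small-subunit RNA for cleavage. Nop56 had 16.1 CPM per kilobase, Nop58 7.17, Fbl 4.96 and Rrp9 0.838. By canonical transcript Fbl (22.5) stood above Nop58 (9.72), so the order of that pair depended on the length used. The 4 genes of RNA polymerase I transcription ran from Polr1b at 0.726 and Polr1a at 0.996, the subunits that form the catalytic centre, through Ubtf at 1.57, which binds ribosomal DNA, to Rrn3 at 3.11, which brings the polymerase to the promoter. Npm1, a nucleolar chaperone and export factor, had 165 CPM per kilobase, Ncl, which binds nascent ribosomal RNA, 21.1, and Nolc1, a chaperone of snoRNPs, 10.8. Emg1 led the 40S group at 21.0 and Mrto4, which prepares the site of the ribosomal stalk, led the 60S group at 64.8. Both groups reached down below 0.4 CPM per kilobase, at Rrp12 (0.349) and Urb1 (0.346).

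**Figure D1:**
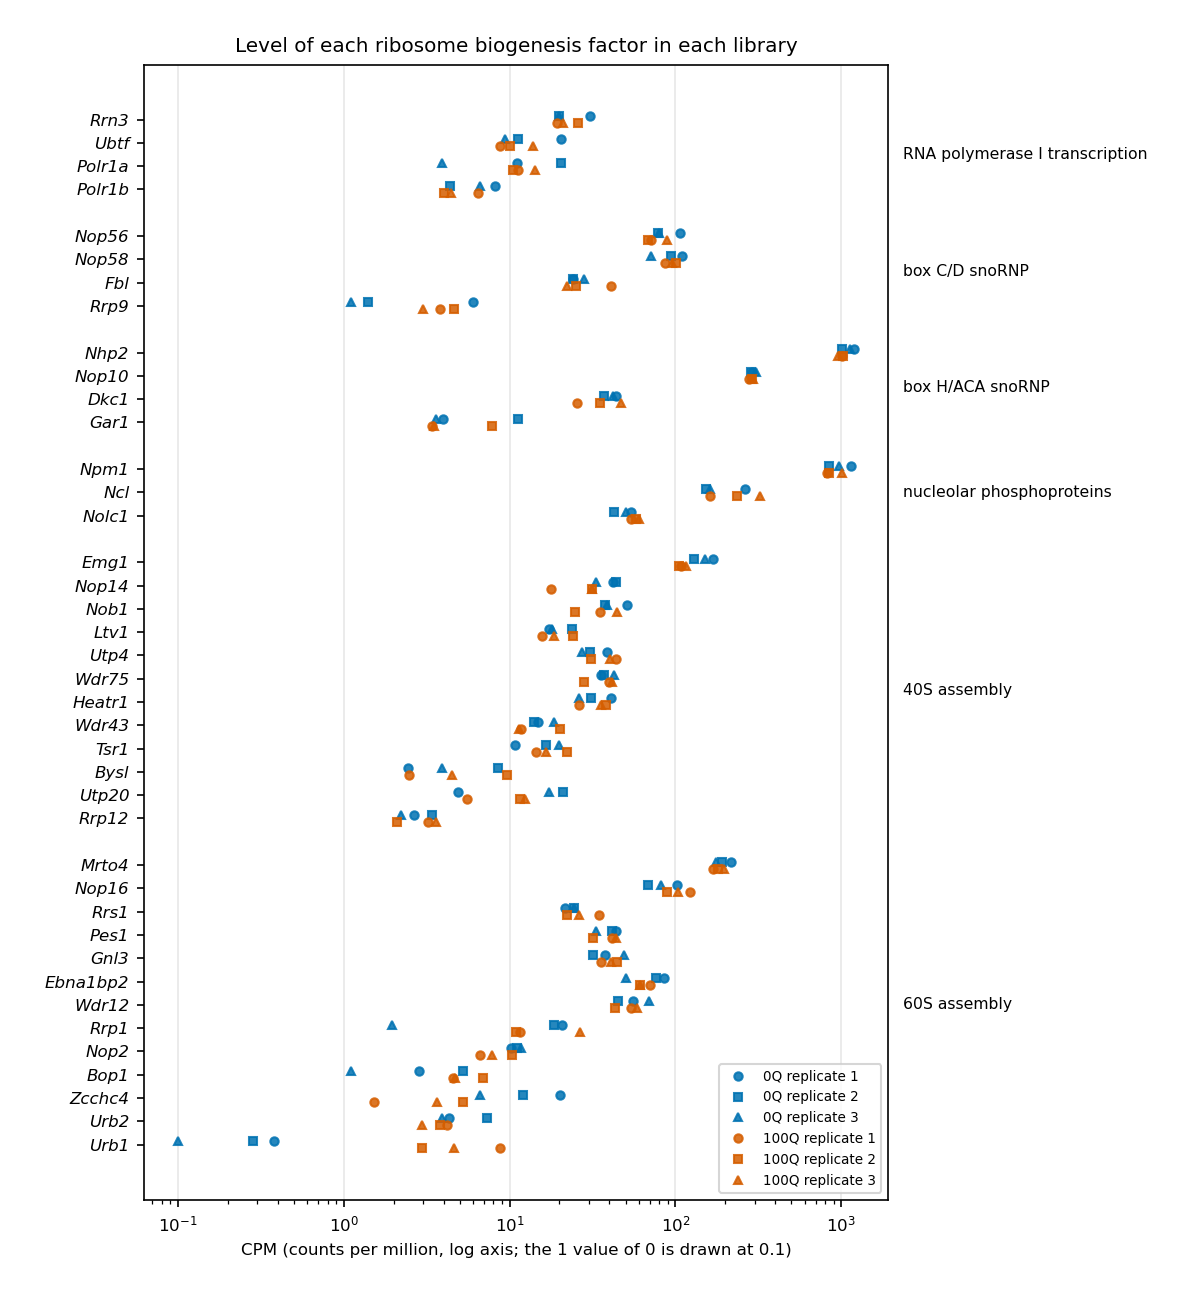
Level of each of the 40 members in each library, in CPM on a log axis, grouped by role and ordered within a role by level per kilobase. Blue symbols are 0Q and orange symbols 100Q, with a circle, square and triangle for replicates 1, 2 and 3, and each gene's 6 values lie close together for abundant members such as Nhp2 and spread out for members of a few CPM such as Rrp9 and Urb1.

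Queuosine is read out at codons NAU and NAC (N is any base), and the members' coding sequences were examined for these codons because the cultures differed in queuine supply. In the canonical GENCODE coding sequences, codons for Asn, Asp, His and Tyr made up a median of 13.9% of codons in members and 13.9% in the 9479 tested genes with at least 5 such codons. Codons ending in U took a median of 47.4% of them in members and 43.6% in all those genes, and 24 of 40 members lay above the latter value. The range within the members was wide. Gnl3, a nucleolar GTPase, had 73.6% (53 NAU and 19 NAC) and Ncl 73.0% (65 and 24), above 98.8% and 98.7% of tested genes. At the other end, Rrs1, which helps to load the smallest rRNA onto the large subunit, had 10.7% (3 and 25), and Emg1, a methyltransferase of 18S rRNA, had 14.3% (4 and 24). Npm1 had the largest share of Asp codons among members, 11.6% of its codons, above 99.6% of tested genes.

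The sequences below show the stretch of 20 codons within 1 coding exon that holds the most such codons, for Gnl3 and Rrs1 at the ends of the range, for Npm1, and for the members whose libraries separated between the groups (Urb1, Zcchc4, Nop14 and Emg1). They are written 5′ to 3′ in the coding direction, with NAU (printed NAT) and NAC codons in capitals, and coordinates are on GRCm39.
Gnl3, minus strand, chr14:30735456-30735515: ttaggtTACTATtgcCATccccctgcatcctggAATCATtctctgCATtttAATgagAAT
Npm1, minus strand, chr11:33109936-33109995: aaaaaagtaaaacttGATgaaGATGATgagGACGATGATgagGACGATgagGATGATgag
Rrs1, plus strand, chr1:9615824-9615883: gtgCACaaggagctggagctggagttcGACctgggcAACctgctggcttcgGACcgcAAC
Emg1, minus strand, chr6:124682737-124682796: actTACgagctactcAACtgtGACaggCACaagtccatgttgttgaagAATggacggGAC
Nop14, minus strand, chr5:34814167-34814226: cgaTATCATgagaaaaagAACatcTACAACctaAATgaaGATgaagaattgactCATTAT
Urb1, minus strand, chr16:90601377-90601436: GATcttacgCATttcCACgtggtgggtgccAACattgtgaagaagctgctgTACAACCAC
Zcchc4, plus strand, chr5:52961722-52961781: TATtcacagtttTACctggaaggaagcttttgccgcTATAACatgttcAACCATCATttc
The Npm1 stretch (codons 154 to 173) held 10 Asp codons, 8 of them GAU. In Rrs1 all 5 such codons of the stretch ended in C, and in Emg1 5 of 6 did.

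**Figure D2:**
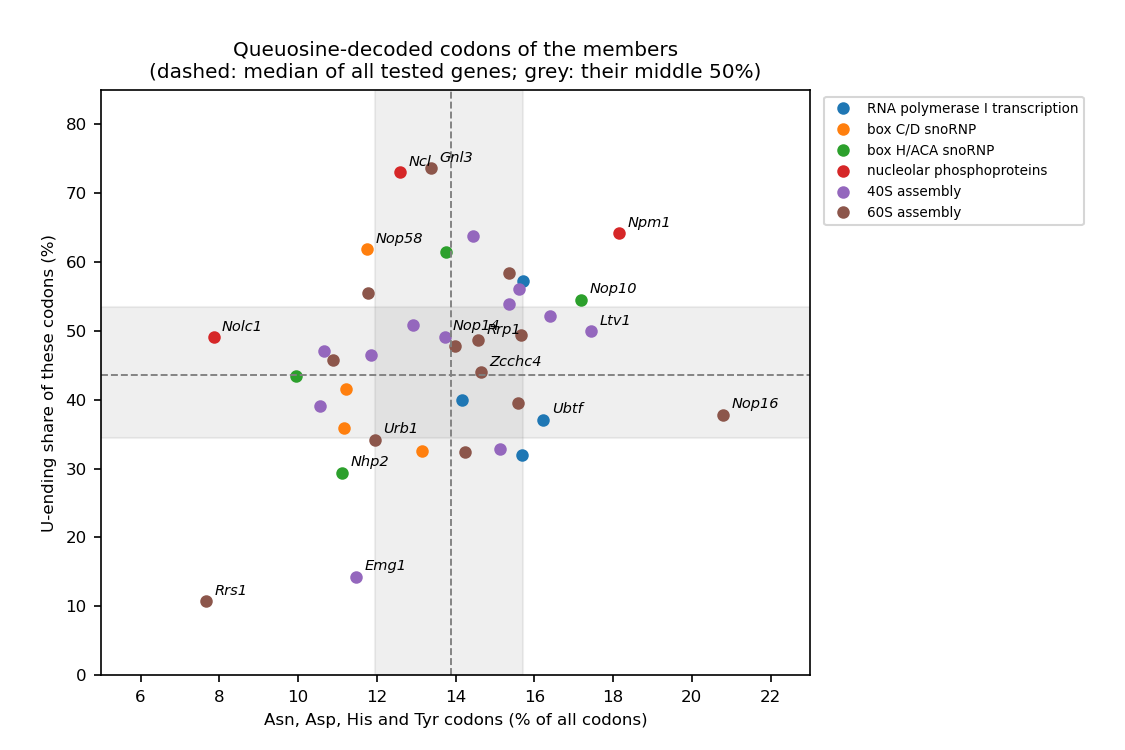
Share of Asn, Asp, His and Tyr codons among all codons (x axis, %) and the U-ending share of those codons (y axis, %) for the 40 members, coloured by role. Dashed lines are the medians of the tested genes (13.9% and 43.6%) and the grey bands their middle 50%; Gnl3 and Ncl lie at the top and Rrs1 and Emg1 at the bottom.

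The main comparison asked whether queuine supply changed the members' mRNA levels. By edgeR's quasi-likelihood test 0 of 40 members passed an adjusted p of 0.05, as did 0 of all 10554 tested genes (0%), and the smallest adjusted p of a member was 0.999. Before adjustment 3 members (7.5%) had p under 0.05, against 2.93% of all tested genes: Urb1 was higher in 100Q, and Zcchc4 and Emg1 were lower. Of the 38 members other than Urb1, which passed the filter only through 100Q, and Zcchc4, Emg1 alone had such a p (2.63%). DESeq2 and limma-voom each also called 0 members, with 4 at an unadjusted p under 0.05, which were these 3 and Nop14. Without 0Q replicate 1 there were 6 such members in place of 3 by edgeR, among them Ncl, Nop16 and Utp20. The 3 libraries of 100Q lay wholly above those of 0Q for 1 member (2.5%, against 4.41% of all tested genes) and wholly below for 3 members (7.5%, against 3.84%). Urb1 and Zcchc4 were already known to be among the genes with the smallest p when this list was drawn up, so these shares are a description.

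Estimates lay below 0 in 100Q for 23 members (57.5%, against 50% of all tested genes) and above 0 for 17. The share below 0 depended on level. It was 46.5% of tested genes below 10 CPM, 52.4% at 10 CPM or more and 67.8% at 100 CPM or more. For members it was 50%, 60% and 83.3% at these levels (10, 30 and 6 members). The median log2 fold change of the members was -0.05, and that of all tested genes was 1.94e-05. For 26 members the 95% interval of the fold change lay within 2-fold in either direction, and for 10 of them within 1.5-fold. None of the 10 members below 10 CPM had an interval within 2-fold, so a change of 2-fold or more was not excluded for any of them.

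**Figure D3:**
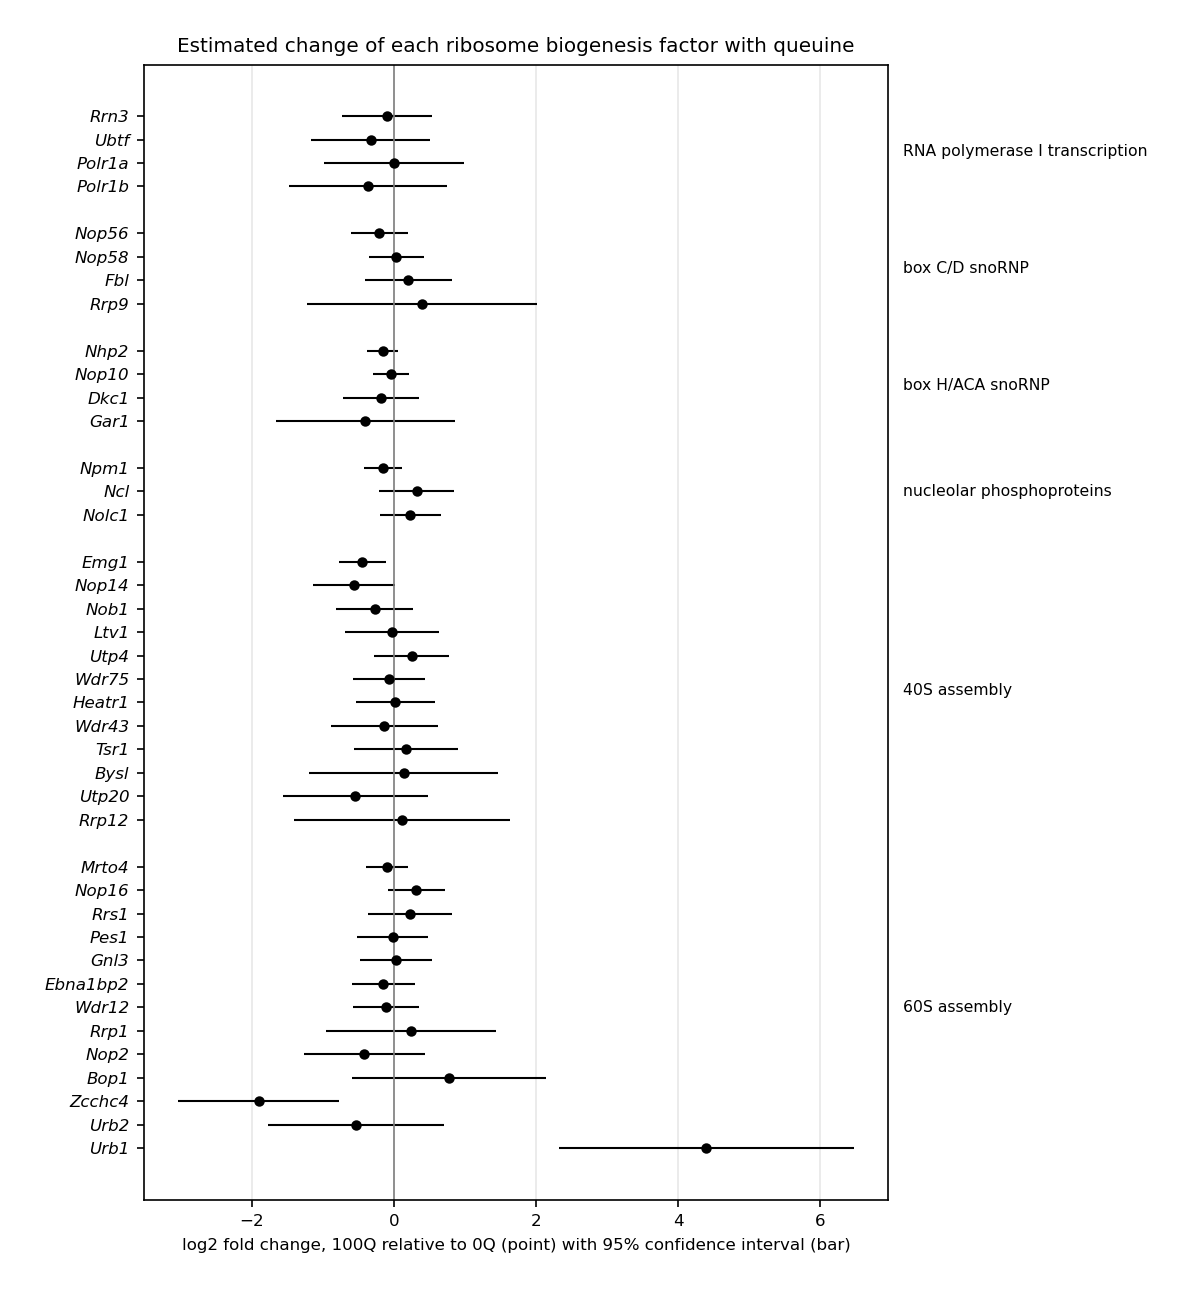
Estimated log2 fold change of each member, 100Q relative to 0Q, from edgeR, with its 95% confidence interval. The intervals are narrowest for Nhp2, Nop10 and Npm1 and exclude 0 for Urb1, Zcchc4 and Emg1 before adjustment for multiple tests.

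RNA polymerase I genes showed no separation between the groups. Rrn3 (ENSMUSG00000022682, chromosome 16, 13598376 to 13635974) had 30.6, 19.7 and 20.0005 CPM in 0Q replicates 1 to 3 and 19.2, 25.9 and 21.0 CPM in 100Q replicates 1 to 3. The highest library was 0Q replicate 1, and the groups overlapped (log2 fold change -0.09, SE 0.30). Ubtf (ENSMUSG00000020923, chromosome 11, 102195386 to 102210568) had 20.4, 11.3 and 9.44 CPM in the 0Q libraries, against 8.75, 10.1 and 13.8 CPM in 100Q. It was also highest in 0Q replicate 1, with overlapping groups (log2 fold change -0.32, SE 0.40). Polr1a ranged from 3.89 to 20.3 CPM within 0Q alone, a wider span than the 10.5 to 14.3 CPM of 100Q. Its log2 fold change of 0.01 (95% interval -0.97 to 0.99) was 0.65 without 0Q replicate 2 and -0.39 without 0Q replicate 3.

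The most abundant snoRNP genes, Nhp2 and Nop10, varied little between libraries. Nhp2 (ENSMUSG00000001056, chromosome 11, 51510383 to 51520806) had 1196, 1014 and 1134 CPM in the 0Q libraries, against 1011, 1028 and 960.5 CPM in 100Q. The lowest library was 100Q replicate 3, 0Q replicate 2 lay among the 100Q values, and the log2 fold change was -0.16 (95% interval -0.38 to 0.07). Nop10, with 285 to 304 CPM in 0Q, against 278 to 292 CPM in 100Q, had a log2 fold change of -0.04 (95% interval -0.29 to 0.22). All 4 box H/ACA members had estimates below 0, with a median of -0.17. Nhp2 stayed below 0 in every alternative (-0.23 to -0.10). The other signs were not stable: Gar1, at -0.40, came to 0.34 without 0Q replicate 2, Dkc1 to 0.00706 without 100Q replicate 1, and Nop10 to 0.000524 with library totals alone. In the box C/D group Nop56 (ENSMUSG00000027405, chromosome 2, 130115808 to 130121238) had 106, 78.8 and 79.2 CPM in the 0Q libraries, against 71.3, 68.7 and 88.7 CPM in 100Q. Here again 0Q replicate 1 was highest, and 100Q replicate 3 exceeded the other 0Q libraries (log2 fold change -0.20, SE 0.19). Nop58, Fbl and Rrp9 had estimates above 0, from 0.04 to 0.40, and none reached an unadjusted p of 0.05. Fbl came to -0.11 without 100Q replicate 1. Nop58 came to -0.11 without 0Q replicate 3, -0.02 when 100Q replicate 2 was left out and -0.09 with the length trend removed.

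Among the nucleolar phosphoproteins, Npm1 (ENSMUSG00000057113, chromosome 11, 33100281 to 33113267) had 1142, 844 and 974 CPM in the 0Q libraries, against 818, 839 and 1006 CPM in 100Q. Highest and lowest values came from 0Q replicate 1 and 100Q replicate 1, with the other libraries mixed, and the log2 fold change was -0.15 (95% interval -0.42 to 0.11). Ncl (ENSMUSG00000026234, chromosome 1, 86272441 to 86287208) had 264, 154 and 162 CPM in the 0Q libraries, against 162, 234 and 325 CPM in 100Q. Each group spanned both low and high libraries. The log2 fold change of Ncl was 0.32 (95% interval -0.20 to 0.84, edgeR unadjusted p = 0.208), and it was 0.62 without 0Q replicate 1 and 0.04 without 100Q replicate 3. Nolc1 ranged from 42.9 to 53.6 CPM in 0Q and from 53.6 to 60.6 CPM in 100Q, with 0Q replicate 1 and 100Q replicate 1 nearly level at the border between the groups (log2 fold change 0.23, SE 0.20).

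The 40S group contained Emg1 and Nop14, both lower in every 100Q library than in every 0Q library. Emg1 (ENSMUSG00000004268, chromosome 6, 124641811 to 124689177, minus strand) had 168, 130.0 and 150.3 CPM in the 0Q libraries, against 109, 105 and 116 CPM in 100Q. The lowest 0Q library thus stood above the highest 100Q library by more than the range of 100Q. Its log2 fold change was -0.44 (SE 0.15, 95% interval -0.77 to -0.12), with an unadjusted p = 0.0108 and an adjusted p = 0.999 by edgeR, and over the alternatives it ran from -0.54 to -0.34. Annotated exons of Emg1 share 4277 bases with Lpcat3 on the opposite strand, a lipid enzyme gene at 9.62 to 20.4 CPM whose groups overlapped. Nop14 (ENSMUSG00000036693, chromosome 5, 34795876 to 34817506, minus strand), a core protein of the small subunit processome, had 42.1, 43.6 and 33.3 CPM in the 0Q libraries, against 17.9, 31.6 and 31.4 CPM in 100Q. The groups came close at 0Q replicate 3, and the low value of 100Q replicate 1 carried much of the difference. Its log2 fold change was -0.56 (SE 0.27, edgeR unadjusted p = 0.0570), and without 100Q replicate 1 it was -0.34.

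The other 10 members of the 40S group had estimates from -0.54 to 0.25 and overlapping groups. They include Utp4, Wdr43, Wdr75 and Heatr1, which join the nascent precursor first, Utp20, Bysl and Rrp12, and the late factors Nob1, the endonuclease that trims 18S rRNA, Ltv1 and Tsr1. Heatr1 had 26.4 to 40.8 CPM in 0Q, against 26.04 to 38.1 CPM in 100Q, which is nearly the same range. Utp20 stood at 4.91 CPM in 0Q replicate 1 and at 5.51 CPM in 100Q replicate 1, and at 11.6 CPM or more in the other 4 libraries. Nob1 ranged from 37.7 to 50.8 CPM in 0Q and from 24.9 to 44.7 CPM in 100Q. Over the 12 genes of the group the median log2 fold change was -0.05.

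In the 60S group the widest differences were those of Urb1 and Zcchc4, both genes of low level. Urb1 (ENSMUSG00000039929, chromosome 16, 90548415 to 90607301, minus strand) had 2, 2 and 0 counts in 0Q replicates 1 to 3, or 0.378, 0.282 and 0 CPM, and 46, 14 and 88 counts in 100Q, or 8.75, 2.95 and 4.65 CPM. Each 0Q library held fewer than 3 counts, which corresponded to 0.423 to 0.833 CPM there, and each 100Q library held more. Since Urb1 entered the comparison only through the group where it is high, its fitted values are a description. The fitted log2 fold change was 4.40 (SE 0.99, 95% interval 2.32 to 6.48), with an unadjusted p of 0.000325 and an adjusted p of 0.999 by edgeR. With 4 counts in all in 0Q, this estimate depends on the small count added in the fit. Over the alternatives it ran from 3.91 to 4.83, and the adjusted p from 0.116 without a filter on low counts and 0.135 by DESeq2 to 1. Its partner in name Urb2 had 3.89 to 7.33 CPM in 0Q, against 2.96 to 4.18 CPM in 100Q, with an estimate on the other side of 0 (log2 fold change -0.53, SE 0.59).

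Zcchc4 (ENSMUSG00000029179, chromosome 5, 52932751 to 52982012, plus strand), which methylates an adenosine of 28S rRNA, had 20.2, 11.99 and 6.67 CPM in the 0Q libraries, against 1.52, 5.27 and 3.65 CPM in 100Q. Those values rest on 107, 85 and 24 counts in 0Q and 8, 25 and 69 counts in 100Q. The nearest libraries were 0Q replicate 3 and 100Q replicate 2, at 6.67 and 5.27 CPM. The log2 fold change was -1.90 (SE 0.54, 95% interval -3.04 to -0.76), with an unadjusted p = 0.00254 and an adjusted p of 0.999 by edgeR. It was -1.43 without 0Q replicate 1, and over all alternatives the adjusted p ran from 0.326 to 1. The exons of Urb1 and of Zcchc4 share no bases with another annotated gene.

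**Figure D4:**
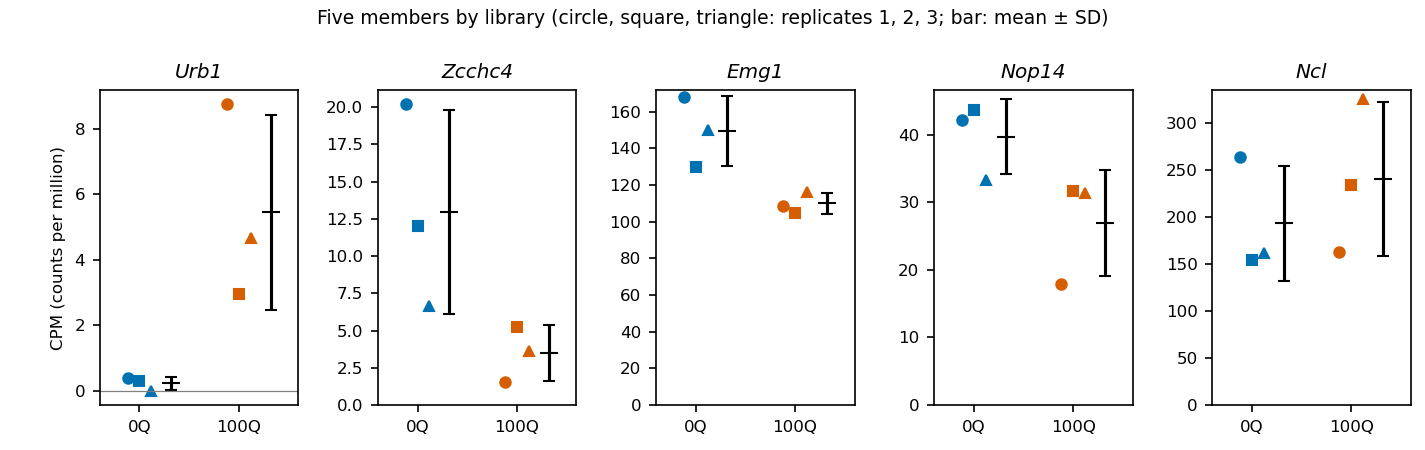
CPM in each library for the 4 members whose groups did not overlap (Urb1, Zcchc4, Emg1 and Nop14) and for Ncl, whose groups did. Symbols are replicates 1 to 3 (circle, square, triangle), black bars are the mean ± SD of 3 libraries, and the axes start at or just below 0.

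The most abundant member of the 60S group, Mrto4 (ENSMUSG00000028741, chromosome 4, 139074746 to 139079922), had 215, 192 and 176 CPM in the 0Q libraries, against 168, 179.7 and 197 CPM in 100Q. The groups overlapped throughout, with a log2 fold change of -0.10 (95% interval -0.39 to 0.20). Pes1, Bop1 and Wdr12 form 1 complex that is needed for large-subunit RNA processing, and they differed in level and in precision. Pes1 had 33.1 to 44.0 CPM in 0Q, against 32.02 to 44.0 CPM in 100Q, and Wdr12 45.1 to 69.4 and 43.4 to 58.9 CPM. Bop1 had 1.11 to 5.22 CPM in 0Q, against 4.56 to 6.95 CPM in 100Q (log2 fold change 0.78, 95% interval -0.59 to 2.14). The estimate of Bop1 was 0.41 without 0Q replicate 3 and 1.40 without 0Q replicate 2. Its exons share 522 bases with Hsf1 on the opposite strand, and Hsf1 had 3.10 to 4.15 CPM in 0Q, against 0.843 to 1.96 CPM in 100Q. They share 104 bases with Mroh1, also on that strand, and Mroh1 had 70.2 to 90.0 CPM in 0Q, against 42.1 to 51.1 CPM in 100Q (edgeR unadjusted p = 0.000581, adjusted p = 0.999). Strandedness of the libraries is not given in the sources used here, so reads in such shared bases cannot be assigned to a strand.

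Nop16, which acts early on the 60S precursor, had 68.1 to 103 CPM in 0Q, against 88.7 to 122 CPM in 100Q (log2 fold change 0.32, 95% interval -0.08 to 0.72). Its exons share 235 bases with Higd2a on the opposite strand, at 261 to 321 CPM. Rrp1 had 1.94 CPM in 0Q replicate 3 and 11.0 CPM or more in the other 5 libraries, with the highest value, 26.5 CPM, in 100Q replicate 3. Its estimate of 0.25 was -0.24 without 0Q replicate 3, -0.31 without 100Q replicate 3 and 0.63 without 0Q replicate 1. Gnl3, Rrs1, Ebna1bp2 and Nop2 had overlapping groups and estimates from -0.42 to 0.23. Over the 13 genes the median log2 fold change was -0.01.

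Libraries of the same group differed among themselves by as much as the groups did. In 0Q replicate 1, 28 of 40 members lay above their own mean over the 6 libraries, with a median deviation of 0.15 in log2 CPM, and in 100Q replicate 3, 26 did, with a median of 0.08. The lowest library was 100Q replicate 1, where 15 members lay above their mean and the median was -0.09, followed by 0Q replicate 3 at -0.08. High and low libraries were thus found in both groups. The polymerase I genes had the widest spread, from 0.50 in 0Q replicate 1 to -0.24 in 0Q replicate 3. In 0Q replicate 1 deviations across tested genes fell with exonic length (Spearman rho -0.14, across genes, which are not independent), against -0.04 to 0.09 in the other 5 libraries, and the part of length in the members' deviations was not tested. In the fit with the length trend removed, the median log2 fold change between the groups was -0.10 for members and -0.07 for all genes. The ribosomal protein genes, whose products these factors assemble, were also highest in 0Q replicate 1 (0.14) and lowest in 100Q replicate 1 (-0.12). They differed from the members in 0Q replicate 3, at 0.10 against -0.08. Of the 79 ribosomal protein genes tested, 72 had estimates below 0 (91.1%, against 67.8% of all tested genes at 100 CPM or more).

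**Figure D5:**
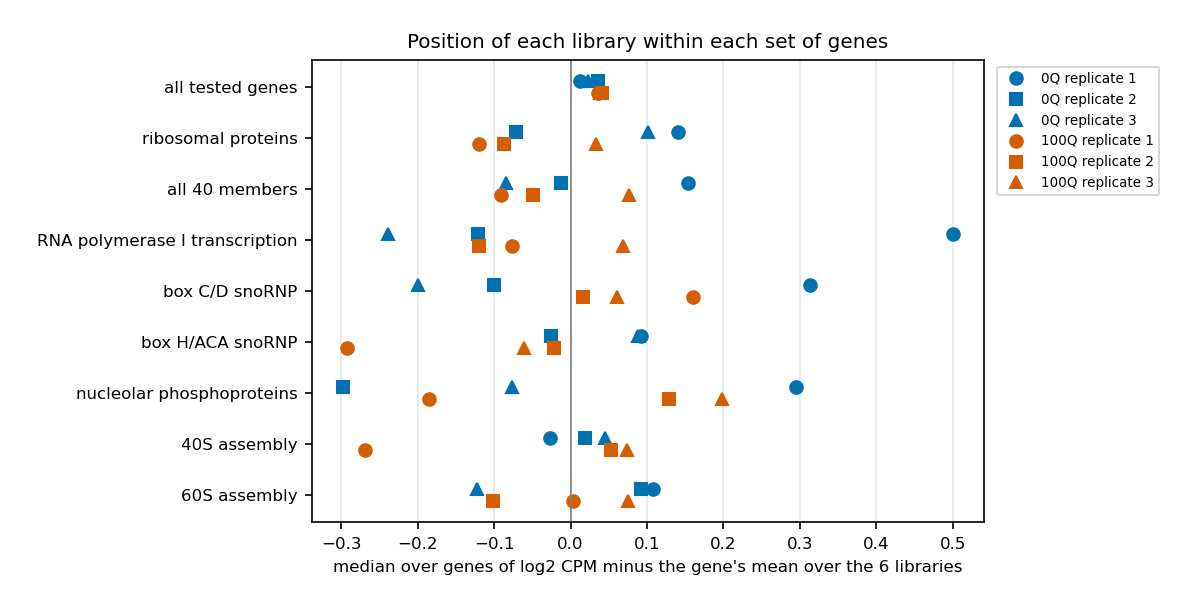
Median deviation of each library, as log2 CPM minus the gene's mean over the 6 libraries, for all tested genes, ribosomal protein genes, the 40 members and the 6 role groups. Colours are groups (blue 0Q, orange 100Q) and symbols replicates; 0Q replicate 1 is furthest to the right for the members (0.15) and for the polymerase I genes (0.50).

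The spread between libraries of a group followed the level. For the 24 members from 10 to 100 CPM the median within-group SD of log2 CPM was 0.29, against 0.34 for all 4928 tested genes of that range, and 16 of the 24 lay below the latter value. For the 10 members below 10 CPM it was 0.78 against 0.74. The 6 members at 100 CPM or more, which are Nhp2, Npm1, Nop10, Ncl, Mrto4 and Emg1, had intervals with half-widths of at most 0.52 in log2, and the widest was that of Ncl.

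A further 128 genes of ribosome biogenesis were taken as a list of the rest of the pathway, of which 122 were tested. By edgeR 0 of them passed the threshold and 2 (1.64%, against 2.93% of all tested genes) reached an unadjusted p under 0.05, Esf1 and Pwp1, both higher in 100Q. The median log2 fold change was -0.07, and 70 genes lay below 0 and 52 above. In 7 genes of the list (5.74%, against 4.41% of all tested genes) 100Q lay wholly above 0Q, and in 2, Nip7 and Exosc2 (1.64%, against 3.84%), wholly below. Esf1, a nucleolar factor of small-subunit processing, had 26.3, 30.5 and 40.8 CPM in the 0Q libraries, against 37.1, 63.2 and 54.5 CPM in 100Q. Pwp1, which takes part in large-subunit maturation, had 20.6, 22.8 and 12.2 CPM in the 0Q libraries, against 36.3, 32.9 and 24.3 CPM in 100Q. Only for Pwp1 of this pair did the groups not overlap. On the other side the smallest p were those of the exosome subunits Exosc6 (log2 fold change -0.53, SE 0.29) and Exosc2 (-0.58, SE 0.32), with unadjusted p of 0.0839 and 0.0882 by edgeR. The most abundant gene of the list per kilobase was Fcf1, a nuclease of the small subunit processome, at 149 to 173 CPM in 0Q, against 131 to 164 CPM in 100Q. Myc had 22.1, 28.8 and 35.6 CPM in the 0Q libraries, against 22.4, 48.9 and 33.1 CPM in 100Q, with overlapping groups and a log2 fold change of 0.27 (SE 0.30).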

How the data were processed

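Expected counts per gene came from 1 table that the authors deposited, estimated with RSEM after alignment with STAR and checks with FastQC on mm39 (GRCm39), per the submitters' processing notes. The sources used here do not give tool versions, annotation release or strandedness. Expected counts were rounded, and 10554 of 57132 genes passed filterByExpr. The test was that of edgeR 4.0.16 (R 4.3.3; TMM factors, robust glmQLFit, glmQLFTest, 100Q relative to 0Q, Benjamini-Hochberg over all tested genes, threshold 0.05), with limma 3.58.1 (limma-voom) and DESeq2 1.42.0 beside it. Standard errors were the absolute log2 fold change over the root of F. Positions and symbols came from GENCODE mouse release 39 on GRCm39, which lacked 502 of the identifiers. Of the columns 0 were left unused. The edgeR step was tested on simulated data. Alternatives changed the scaling, the test, the filter on low counts, the replicate block, the libraries included, the depth of 100Q replicate 3 and the length trend.

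Of the 40 members 28 share exonic bases with an annotated gene on the opposite strand, 17 of them with a protein-coding gene. A copy of at least 300 bases at 95% identity or more lies elsewhere for 7 members, and RSEM divides reads between such copies. Values of these genes are uncertain. No molecular identifiers are named, so reads may repeat molecules and the floor of 3 counts covers counting error only. No 2 replicates agreed within sampling noise (chi-square per gene 9.22 to 16.5).

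The members and lists were chosen with earlier results of these data known. Values of every library are given by rule for the most abundant member and the member with the smallest p in each of 6 role groups and for all members whose groups did not overlap. Other pathway genes are named by level, by smallest p on each side, and Myc; other members named are examples. A further coding stretch is not reported here.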

Additional observations from a re-analysis of the deposited data

How the results depend on the processing

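All alternatives were planned. With the 15 alternatives, 0 of the members passed the threshold in any, and the median log2 fold change of the members stayed below 0, at -0.12 when 0Q replicate 3 was left out and -0.02 when 100Q replicate 1 was, with the others in between, moving by less than the SD of 0.11 between libraries of a group. Over all tested genes the count past the threshold was 0 except without 0Q replicate 1 (2) and without 0Q replicate 2 (1), which gives 0 to 2 when a library is omitted; fewer libraries were fitted there, and the genes were Gvin2, Gm46542 and Gm2446, none of them a member. Members at an unadjusted p under 0.05 numbered 3 as reported and 3 to 6 in the alternatives, except with the filter at a mean of 10 CPM, which removes Urb1 and Zcchc4 and left 1. Estimates below 0 numbered 23 as reported, 20 with library totals alone and 27 with the length trend removed or without 0Q replicate 3. Single members' estimates changed sign in 36 of 240 values with a library left out and in 14 of 310 in the other settings, with 0 called. With the replicate number as a block, 0 of 40 members and 0 genes passed, the members' median was -0.05 and 0 of 40 members changed sign. Same-numbered libraries had deviations correlated at 0.05, 0.17 and -0.05, so the numbers are not shown to pair the samples, and 0Q replicate 1 correlated best with 100Q replicate 3 (0.21). Depth limits the 10 members below 10 CPM, whose intervals all reach beyond 2-fold.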

Other observations

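Several members carry snoRNA genes inside them on the same strand, 21 genes in 7 hosts, with 5 in Nop56 and 4 in Nop58. Of these 21 entries 20 had 0 counts in all 6 libraries and the remaining entry had 4 counts in all. The libraries are labelled mRNA-seq, and their capture of snoRNAs was not tested. These counts therefore do not show whether the snoRNAs were made in the cultures.

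Copies of members took few counts with some exceptions. Gm14681, a transcribed pseudogene with a stretch of 420 bases at 97.4% identity to Npm1, held 7.11% as many counts as Npm1 over the 6 libraries, and Gm25432 held 4.68% as many as Nop56. A transcript of Tulp4 matches 690 bases of Fbl at 99.6% identity, and Tulp4 held 1341 counts against 1151 for Fbl, so the level of Fbl is uncertain.

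The motif CACGTG, the E-box that Myc and related factors are known to bind and which reads the same on both strands, was looked for from 250 bases before to 50 bases after the canonical start site on GRCm39. It was present for 8 of 40 members (20%), against 10.7% of 9554 tested protein-coding genes and 7.81% of 21770 protein-coding genes; only Rrn3 among the members held more than 1. In Nop2, a cytosine methyltransferase of 28S rRNA, the motif starts 34 bases before the start site, and it is shown in capitals as the example that overlaps no annotated exon.
Nop2, plus strand, chr6:125108769-125108808: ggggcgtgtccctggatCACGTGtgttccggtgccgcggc
A match is a description of these letters and not a bound site.

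Weighted by CPM per kilobase, codons ending in U made up 49.8%, 49.0% and 49.6% of the NAU plus NAC codons over the members in 0Q and 48.6%, 49.8% and 50.6% in 100Q, with overlapping groups. Over the tested genes the values were 44.2% to 44.6% in 0Q and 44.5% to 44.6% in 100Q. Without Npm1 the members stood at 44.2% to 44.5% in 0Q and 43.7% to 46.0% in 100Q. Their means were then 44.4% in 0Q and 45.0% in 100Q, against 44.4% and 44.6% over the tested genes. With these weights, per kilobase of annotated exon, most of the members' level above the other genes thus rested on Npm1. Weights by canonical transcript length were not computed. They would give more weight to Nhp2, at 1003 in place of 275 CPM per kilobase and with 29.4% of its such codons ending in U.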
